A study of Mus musculus with 12 samples.

Results

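A set of 10 interferon-gamma-inducible genes were followed through reprogramming of mouse fibroblasts to pluripotency: the guanylate-binding protein genes Gbp2, Gbp3, Gbp5, Gbp6 and Gbp7, the immunity-related GTPase genes Igtp, Irgm1, Irgm2 and Iigp1, and Cd274, which encodes the checkpoint ligand PD-L1. They are 10 of the 24098 genes of the expression table and were taken by symbol. Gbp2, Gbp5 and Cd274 were chosen from their FPKM because these reach a peak in SSEA-1- cells of day 16 (D16S-), so for these 3 genes every value set against D16S- is a description only. The starting cells were mouse embryonic fibroblasts (MEFs) in which an IRES-EGFP cassette follows the stop codon of Oct4, and all cells of the time course except D0 carried pMXs retroviruses for Oct4, Sox2, Klf4 and c-Myc (OSKM). The time course held uninfected MEFs (D0) and unsorted cells 3 days after OSKM induction (D3). Later cells were sorted into a Thy-1- and a Thy-1+ fraction on days 6 and 9 (D6T-, D6T+, D9T-, D9T+) and into an SSEA-1+ and an SSEA-1- fraction on days 12 and 16 (D12S+, D12S-, D16S+, D16S-). Thy-1 is a surface marker of fibroblasts that cells lose on the way to pluripotency, and SSEA-1 is a surface carbohydrate that they gain, so Thy-1- and SSEA-1+ cells follow the successful route, and Thy-1+ and SSEA-1- cells the unsuccessful one. Induced pluripotent stem cells (iPSCs) made from such MEFs and wild-type ES-D3 mouse embryonic stem cells (mESCs) completed the 12 libraries. MEFs were grown in serum medium without LIF. The labels put the reprogramming cells, iPSCs and mESCs in serum-replacement medium with LIF, bFGF, CHIR99021 and ascorbic acid and no feeder layer. Among other media, the methods of the study also name one with serum and LIF for these cells. D0 thus differs from all other libraries in its medium too. No library was treated with an interferon according to the labels.

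Interferon-gamma is a cytokine of T cells and natural killer cells. It binds a receptor of 2 chains, IFNGR1 and IFNGR2, whose kinases JAK1 and JAK2 pass the signal on to the nucleus. Target promoters carry GAS elements, and the induced factor IRF1 binds ISRE elements in the promoters of later genes. Guanylate-binding proteins and immunity-related GTPases are large GTPases made in most cell types after this signal, and they attack the vacuoles and membranes of intracellular parasites and bacteria. Among the immunity-related GTPases, IRGM1, IRGM2 and IGTP (IRGM3) are regulators that hold effectors such as IIGP1 inactive on the cell's own membranes. PD-L1 on a cell binds PD-1 on T cells and restrains them, and its gene is a classical target of interferon-gamma.

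Each condition had 1 library, so no difference has a replicate check and no test was run. Values are FPKM, fragments scaled to transcript length and to library size by the authors, and each comes with the interval that cuffdiff models for it. Differences are given on the log2(FPKM + 1) scale, where changes of weakly expressed genes come out too small, and a difference of at least 2-fold on this scale is named as such. Beside each count of the 10 genes at these settings stands the percentage of all genes that meet the same criterion, where "all genes" are the 14178 that reach 1 FPKM in some library. Counts at other settings stand without it and are a description only. All 10 genes passed this minimum. Fragment totals were not used here and absolute depth is therefore unknown. The relative depth read from the steps of low values lay between 0.969 and 1.56 times that of D0. The cuffdiff interval included 0 in 90 of the 120 values of the 10 genes, and no pair of libraries that are neighbours in the order of a gene's levels had intervals that were apart. The labels matched the marker genes. Summed FPKM of 12 fibroblast markers was 7787 in D0, 37.7 in D16S+ and 499 in D16S-, and that of 12 pluripotency markers was 2.50, 4953 and 149.

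In the mm9 genome, Gbp5 (chr3:142159864-142185308), Gbp7 (chr3:142193302-142213047), Gbp3 (chr3:142223016-142236173) and Gbp2 (chr3:142283566-142300972) lie in that order on the plus strand within 141 kb of chromosome 3. Gbp6 lies in a second cluster, on the minus strand at chr5:105699723-105722718. Igtp (chr11:58013058-58021093) and Irgm2 (chr11:58028530-58036282) are neighbours on the plus strand of chromosome 11, 7.44 kb apart, and Irgm1 (chr11:48675470-48685185) lies 9.34 Mb away on the minus strand. Cd274 was at chr19:29441945-29462585 on the plus strand. All positions are those of whole protein-coding genes in the GENCODE M1 annotation, and each overlapped the locus that the table gives for the gene.

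The GTPases are told apart by the first nucleotide-binding loop of the G domain, in which the lysine of most GTPases is replaced by methionine in the regulatory immunity-related GTPases. The coding sequences of this loop are shown because they sort the genes into these groups. They were read from the longest complete GENCODE M1 coding sequence of each gene, and capitals mark the codon of that residue:
Gbp2: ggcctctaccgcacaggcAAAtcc
Gbp3: ggtttatatcgtacagggAAGtcc
Gbp5: ggtctttatcgcacaggcAAAtcc
Gbp6: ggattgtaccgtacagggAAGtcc
Gbp7: ggactataccgtacgggaAAAtcc
Igtp: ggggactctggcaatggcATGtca
Irgm1: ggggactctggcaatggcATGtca
Irgm2: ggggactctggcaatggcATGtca
The 24 bases were identical in the 3 regulators, with a methionine codon, and all guanylate-binding proteins had a lysine codon at this place. The encoded proteins of the regulators were 47.1% identical between Igtp and Irgm1, 49.8% between Igtp and Irgm2 and 46.3% between Irgm1 and Irgm2. Among the guanylate-binding proteins, Gbp3 and Gbp7 were the closest members, at 71.0% identity, and Gbp2 and Gbp5 shared 46.5%. Identity was counted over all columns of the alignment, gaps included.

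Similar copies bear on the values, since the authors removed reads that map to several loci. Of the 50-base words of the transcript, between 89.9% and 99.9% occurred in no transcript of another gene for 9 of the 10 genes. For Gbp6 the share was 19.1%, and its protein was 97.7% identical to that of Gbp10, so the level of Gbp6 is uncertain.

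Gbp2, whose product is recruited to the vacuoles of parasites and to bacteria, was the most abundant guanylate-binding protein gene in D16S-. Its FPKM was 12.9 in D0, 3.78 in D3, 25.3 in D6T-, 44.2 in D6T+, 40.5 in D9T-, 65.3 in D9T+, 34.9 in D12S+, 60.5 in D12S-, 68.0 in D16S+, 353 in D16S-, 1.89 in iPSCs and 0.116 in mESCs. D16S- stood 5.19-fold above the next library, D16S+, and 27.5-fold above D0. Gbp2 was also at least 2-fold higher in D16S+ than in D0, with a log2 difference of 2.32, as 1 of the 10 genes (20.0% of all genes). As plain ratios of FPKM, Gbp5 (2.40) and Cd274 (2.13) passed 2-fold in D16S+ as well, and 3 of the 10 genes did so on the log2 scale with a pseudocount of 0.1 or with equal total FPKM in each library. Shares of all genes at these 2 settings are not given here. The intervals of D16S- (0 to 712) and D16S+ (1.12 to 135) overlapped.

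Gbp5, which promotes assembly of the NLRP3 inflammasome in macrophages, was expressed at a far lower level. Its FPKM was 0.590 in D0, 0.0214 in D3, 0.459 in D6T-, 1.19 in D6T+, 1.35 in D9T-, 3.10 in D9T+, 1.77 in D12S+, 3.87 in D12S-, 1.42 in D16S+ and 17.2 in D16S-, and it was listed at 0 in iPSCs and mESCs. D16S- was 4.46-fold above D12S-, the next library, and 12.2-fold above D16S+. In each sorted pair, the Thy-1+ or SSEA-1- library was the higher one.

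Gbp3 and Gbp7, a pair of adjacent genes whose products are also recruited to pathogen vacuoles, had nearly the same profile, with a Pearson r of 0.99 over the 12 libraries. Gbp3 reached 143 FPKM in D16S-, against 19.0 in D16S+, 54.2 in D12S-, 53.1 in D9T+, 20.4 in D0 and 2.00 in D3. Gbp7 was lower at each of these points, with 26.9 FPKM in D16S-, 5.68 in D16S+, 13.5 in D12S-, 11.7 in D9T+, 3.27 in D0 and 0.579 in D3. Both were highest in D16S- and second in D12S-. Gbp6 had 6.90 FPKM in D16S- and 3.98 in D9T+, and between 0.0106 and 1.88 in the other libraries.

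Igtp, a regulator of the immunity-related GTPases, was the most abundant of the 10 genes in D16S-. Its FPKM was 30.0 in D0, 0.836 in D3, 21.4 in D6T-, 55.1 in D6T+, 62.2 in D9T-, 177 in D9T+, 48.7 in D12S+, 89.7 in D12S-, 51.3 in D16S+, 376 in D16S-, 2.04 in iPSCs and 2.45 in mESCs. D3 was the lowest library, below iPSCs and mESCs. D16S- stood 2.13-fold above D9T+, the second library. Irgm2, the neighbour of Igtp, followed it closely, with a Pearson r of 0.99 over the 12 libraries and of 0.99 without D16S-. Irgm2 had 30.7 FPKM in D16S-, 19.9 in D9T+, 13.8 in D12S-, 8.48 in D16S+ and 7.67 in D0, and it was lowest in D3, at 0.228.

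Irgm1, a regulator that also takes part in autophagy and in resistance to mycobacteria, was the one with the highest level in D0. Its FPKM was 65.4 in D0, 5.41 in D3, 18.4 in D6T-, 43.5 in D6T+, 62.2 in D9T-, 81.6 in D9T+, 38.0 in D12S+, 63.6 in D12S-, 54.7 in D16S+, 126 in D16S-, 2.97 in iPSCs and 0.150 in mESCs. D16S- was 1.92-fold above D0, the smallest ratio of the 10 genes and the only one below 2-fold. Irgm1 was also the only gene of the 10 for which the cuffdiff intervals of D0 (3.77 to 127) and mESCs (0 to 0.541) were apart.

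Iigp1, an effector that vesiculates parasite vacuoles, did not peak in D16S-. Its FPKM was 0.968 in D0, 0.0110 in D3, 0.756 in D6T-, 5.58 in D6T+, 2.16 in D9T-, 13.8 in D9T+, 1.41 in D12S+, 3.19 in D12S-, 1.54 in D16S+, 9.05 in D16S- and 0.0150 in iPSCs, and it was listed at 0 in mESCs. D9T+ was the highest library, 1.53-fold above D16S-, and the day 9 value for Thy-1+ cells was 6.42-fold that of Thy-1- cells. The intervals of its 66 pairs of libraries all overlapped.

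Cd274 was the member with the smallest span outside D16S-. Its FPKM was 1.48 in D0, 0.949 in D3, 0.874 in D6T-, 1.42 in D6T+, 1.48 in D9T-, 3.21 in D9T+, 1.91 in D12S+, 2.48 in D12S-, 3.15 in D16S+, 12.1 in D16S-, 0.360 in iPSCs and 0.229 in mESCs. D16S- was 3.76-fold above D9T+, the second library, and the interval in D16S- ran from 0 to 25.5. The 11 other libraries lay within 3.21 FPKM, and D0, D6T+ and D9T- were within 0.1 FPKM of each other.

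**Figure D1:**
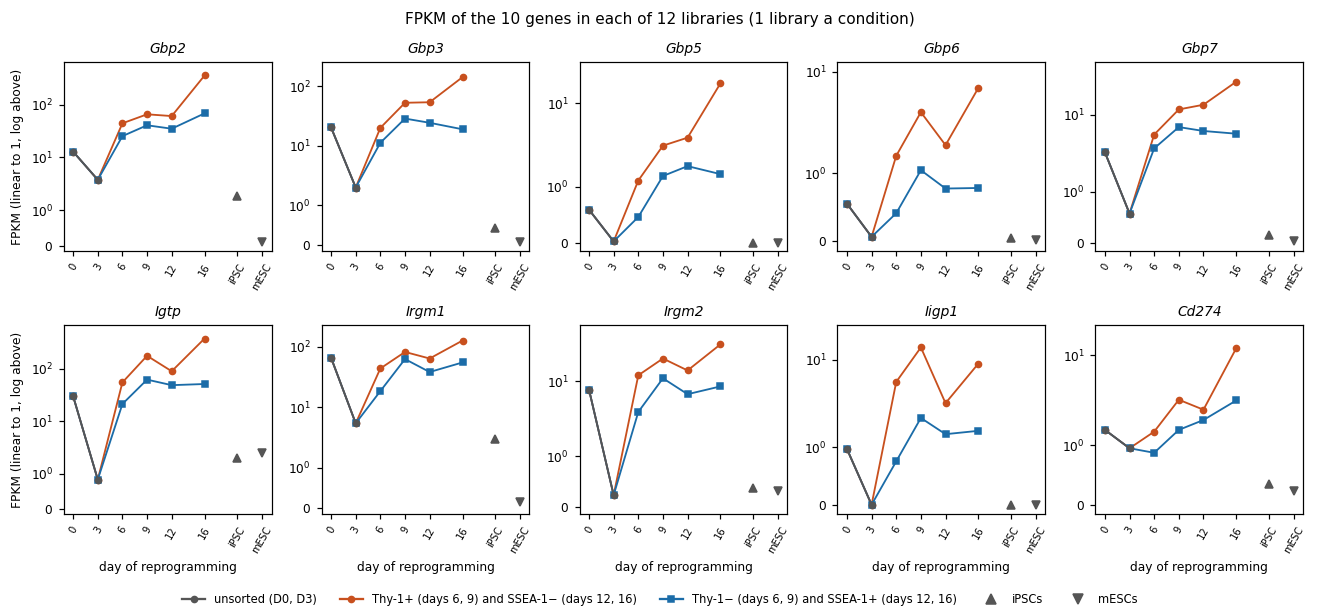
FPKM of each of the 10 genes (linear up to 1, logarithmic above) by day of reprogramming, with Thy-1+ and SSEA-1- fractions in orange, Thy-1- and SSEA-1+ fractions in blue, and iPSCs and mESCs as triangles; each point is 1 library. The orange line lies above the blue one for every gene on every sorted day (24.8% of all genes), all 10 genes are lower in D3 than in D0 (51.8% of all genes), and 9 of 10 are highest in D16S- (6.62% of all genes), with Iigp1 highest in D9T+.

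The sorted fractions ask whether the genes follow one route. On each of the 4 sorted days, all 10 genes were higher in the library of the unsuccessful route (Thy-1+ or SSEA-1-) than in that of the successful route, a pattern over the 4 days that 24.8% of all genes showed. At 2-fold or more, 4 of the 10 were higher in D6T+ than in D6T- (9.47% of all genes), namely Igtp, Irgm1, Irgm2 and Iigp1. On day 9, Gbp6, Igtp and Iigp1, 3 of the 10, were at least 2-fold higher in D9T+ than in D9T- (6.45% of all genes). On day 12, Gbp3 and Gbp7, 2 of the 10, were at least 2-fold higher in D12S- than in D12S+ (3.03% of all genes). On day 16, all 10 were at least 2-fold higher in D16S- than in D16S+ (15.2% of all genes). Of these 10, Gbp2, Gbp5 and Cd274 were chosen for a peak in D16S-, and nothing is read from their share. With a pseudocount of 0.1 in place of 1, the counts were 5 on day 9 and 6 on day 12, and shares of all genes at this setting are not given here. On day 6, Gbp5 (2.59) and Gbp6 (3.63) passed 2-fold too as plain ratios of FPKM.

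The median log2 difference between the fractions was alike on days 6, 9 and 12, at 0.80, 0.81 and 0.81, and it was 2.11 on day 16, against medians within 0.03 of 0 over all genes. For the 7 genes not chosen for a peak in D16S-, the median on day 16 was 2.06. The gene with the largest difference changed with the day. It was Iigp1 on day 6 (1.90) and day 9 (2.23), Gbp3 on day 12 (1.12) and Gbp5 on day 16 (2.92). Cd274 had the smallest difference on day 6 (0.37) and day 12 (0.26), whereas Irgm1 had the smallest on day 9 (0.39) and day 16 (1.19). On the log2 scale, the 4 immunity-related GTPases had the 4 largest differences on day 6, whereas Gbp5, Igtp and Gbp3 led on day 16. As plain ratios of FPKM, the order was another. On day 6, Gbp6 (3.63) came second after Iigp1 (7.37), Gbp5 (2.59) passed Igtp (2.58) and Irgm1 (2.36), and Gbp7 (1.51) was lowest. Gbp6 led on day 12 (2.44) and came second after Gbp5 on day 16 (8.85 and 12.2). In no member were the cuffdiff intervals of the 2 fractions of a day apart.

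**Figure D2:**
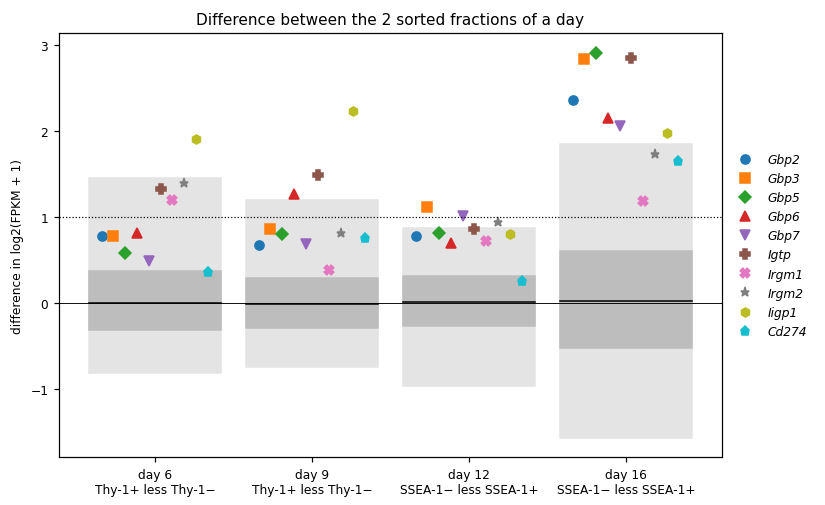
Difference in log2(FPKM + 1) between the 2 sorted fractions of each day (Thy-1+ less Thy-1- on days 6 and 9, SSEA-1- less SSEA-1+ on days 12 and 16) for the 10 genes, 1 symbol a gene; grey boxes span the middle 50% (dark) and 90% (light) of 14178 genes, the black line is their median and the dotted line marks 2-fold. All points lie above 0, between 0.26 and 2.23 on the first 3 days and between 1.19 and 2.92 on day 16.

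Over time, the first step was downward. All 10 genes were lower in D3 than in D0 (51.8% of all genes), and 6 of the 10 were at least 2-fold lower (8.67% of all genes), namely Gbp2, Gbp3, Gbp7, Igtp, Irgm1 and Irgm2. As a ratio of FPKM, D0 was 35.9-fold above D3 for Igtp, 33.7-fold for Irgm2, 12.1-fold for Irgm1, 10.2-fold for Gbp3 and 1.56-fold for Cd274. Gbp5, Gbp6 and Iigp1 were under 1 FPKM on both days. Infection, the change of medium and the passage of 3 days fall together in this step and cannot be told apart.

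Levels were higher again on later days. In the Thy-1- and SSEA-1+ libraries, 2 of the 10 genes were above D0 by any amount in D6T- (48.9% of all genes), 8 in D9T- (49.7%), 8 in D12S+ (51.0%) and 8 in D16S+ (51.7%). In Thy-1+ cells, of the 10 genes, 2 were at least 2-fold higher in D6T+ than in D0 (4.83% of all genes), Gbp2 and Iigp1, and 8 were at least 2-fold higher in D9T+ than in D0 (10.0% of all genes), all but Irgm1 and Cd274. Igtp stood 5.88-fold above D0 in D9T+, Gbp2 5.07-fold, Gbp6 7.25-fold and Iigp1 14.3-fold. Igtp, Irgm1, Irgm2, Gbp2, Gbp6, Iigp1 and Cd274 were lower in D12S- than in D9T+. The 2 libraries were sorted on different markers and the share of all genes lower there was not computed, so nothing is read from this. Between D12S- and D16S-, 8 of the 10 genes differed by at least 2-fold upward (2.03% of all genes). The exceptions were Gbp7 with a log2 difference of 0.95 and Irgm1 with 0.97. The median of the 10 over this step was 1.42. For the 7 genes not chosen for a peak in D16S-, the count was 5 and the median 1.26. Against D0, 9 of the 10 were at least 2-fold higher in D16S- (12.8% of all genes), with a median log2 difference of 2.55. Gbp2, Gbp5 and Cd274 again owe their place to a peak in D16S-. Without them, the count was 6 of the remaining 7 against D0 and the median 2.35.

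At the end of the successful route the genes were close to silent. All 10 were lower in iPSCs than in D0 (48.4% of all genes), and 6 of the 10 were at least 2-fold lower (21.6% of all genes), again Gbp2, Gbp3, Gbp7, Igtp, Irgm1 and Irgm2. Only Gbp2, Igtp and Irgm1 exceeded 1 FPKM in iPSCs, and only Igtp did in mESCs. Irgm1 and Gbp2, 2 of the 10 genes, were at least 2-fold higher in iPSCs than in mESCs (6.79% of all genes), and Igtp was lower in iPSCs by 0.18 on the log2 scale. The lowest of the 12 libraries was iPSCs or mESCs for 8 of the 10 genes (30.6% of all genes) and D3 for Igtp and Irgm2. The highest was D16S- for 9 of the 10 (6.62% of all genes), a count of which 3 were fixed by the choice of genes. The sum over the 10 genes was 143 FPKM in D0, 13.9 in D3, 214 in D16S+, 1102 in D16S-, 8.25 in iPSCs and 3.37 in mESCs.

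In D16S-, the order by FPKM was Igtp (376), Gbp2 (353), Gbp3 (143), Irgm1 (126), Irgm2 (30.7), Gbp7 (26.9), Gbp5 (17.2), Cd274 (12.1), Iigp1 (9.05) and Gbp6 (6.90). In D0 it was led by Irgm1 (65.4), Igtp (30.0), Gbp3 (20.4) and Gbp2 (12.9). In bulk libraries such as these, more expressing cells and more RNA per cell cannot be told apart.

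The rest of the GTPase families was read beside the members. Of 17 other interferon-inducible GTPase genes in the table, 11 reached 1 FPKM, and 10 of these 11 were at least 2-fold higher in D16S- than in D16S+ (15.2% of all genes), with a median log2 difference of 1.67. Against D0, 2 of the 11 were higher in D3 by any amount (46.4% of all genes). The median log2 difference was -0.23, where the members had -1.49 and none was higher. In D0, 15 of the 17 were under 1 FPKM, and falls from such levels come out small on this scale. Gbp10, for example, had 0.190 FPKM in D0 and 0.00908 in D3, although only 20.2% of its 50-base words were unique and its level is uncertain. F830016B08Rik, the one below 2-fold on day 16, was highest in D9T+ with 3.60 FPKM, as its chromosomal neighbour Iigp1 was. Gbp4, Gbp8 and Gbp9, of the chromosome 5 cluster, had 26.5, 20.9 and 19.3 FPKM in D16S- and 4.94, 2.67 and 3.01 in D16S+. Ifi47 had 27.1 FPKM in D16S-, 8.89 in D16S+ and 0 in iPSCs and mESCs, and Gm12250, next to Igtp, had 26.5, 2.42 and 0.263 in D16S-, D16S+ and iPSCs. Tgtp1 and Tgtp2 are near-identical copies with under 10% of their 50-base words unique, and their values cannot be assigned to one or the other. Tgtp2 was listed lower in D9T+ (9.74) than in D9T- (11.7) and lower in D12S- (4.89) than in D12S+ (8.42), whereas each member was higher in the Thy-1+ or SSEA-1- library. The level of Gbp2b was at most 0.0333 FPKM.

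**Figure D3:**
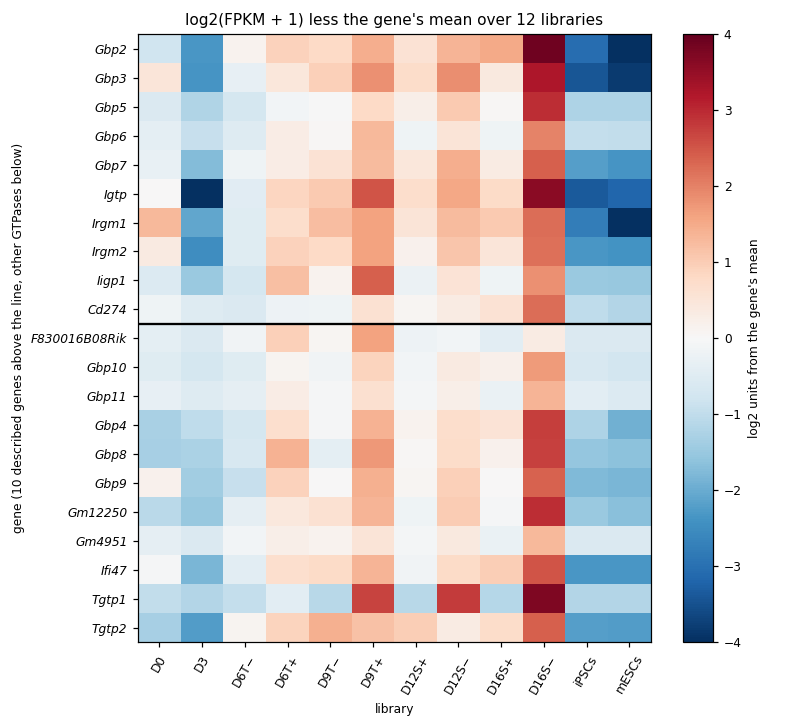
Heat map of log2(FPKM + 1), less each gene's mean over the 12 libraries, for the 10 described genes (above the line) and the 11 other interferon-inducible GTPase genes with at least 1 FPKM in some library (below); columns are libraries and red is above the gene's mean. The D16S- column is the reddest for 19 of the 21 genes, D9T+ is for Iigp1 and F830016B08Rik, and the D3, iPSCs and mESCs columns lie below the mean.

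Genes beside the members went both ways. Within 100 kb of a member there were 15 kept genes that are no interferon-inducible GTPases, of which 3 stood above D16S+ in D16S- by 2-fold or more (15.2% of all genes) and 1 below it by as much (11.8% of all genes), with a median log2 difference of -0.01. The 3 were Smim3 beside Iigp1 (1.93), Trim7 beside Irgm1 (1.76, against 1.19 for Irgm1 itself) and Zfp672 beside Irgm2 (1.30), and the 1 was Ccbl2 beside Gbp2 (-1.36). Mrpl22, Gemin5 and Cnot8, within that distance of Igtp and Irgm2, had log2 differences of -0.62, -0.40 and -0.64. Beside Cd274, Plgrkt had a log2 difference of -0.01 and Jak2, which encodes one of the kinases of the interferon-gamma receptor and lies 54.4 kb away, 0.83. Pdcd1lg2, which encodes PD-L2, lies 22.8 kb from Cd274 and had at most 0.0188 FPKM in any library.

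The ligand itself was close to undetected. Ifng had between 0 and 0.959 FPKM, with the highest value in D16S- and the next, 0.449, in D9T+. Of 18 ligand genes in the table, none reached 1 FPKM in any library. Ifnb1 was listed at 0 in all libraries but D0 (0.150), Ifna1 and Ifna4 were listed at 0 throughout, and Il12b, a cytokine that induces interferon-gamma, had at most 0.0181. RNA levels say nothing of interferon protein in the medium.

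The receptor chains were expressed, and their profiles differed from those of the members. Ifngr1 had 37.3 FPKM in D0, 43.3 in D6T+, 37.1 in D9T+, 23.7 in D12S-, 28.2 in D16S-, 7.68 in D16S+, 3.92 in iPSCs and 7.99 in mESCs. Ifngr2 was highest in D0 (57.0) and lower in D16S- (12.9) and D16S+ (4.36). Both were higher in the Thy-1+ or SSEA-1- library on each sorted day. Jak1 had 39.4 FPKM in D0, 24.7 in D16S- and 19.6 in D16S+, and Jak2 4.23, 5.07 and 2.42. Levels of receptor and kinase RNA were thus at or below those of D0 in D16S-, with Jak2 the exception, while the members stood above D0.

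The factors downstream of the receptor were not of one kind. Irf1 had 45.8 FPKM in D0, 9.03 in D3, 129 in D9T+, 94.4 in D9T-, 174 in D16S- and 114 in D16S+, so that it stood above D0 in both fractions of these days. Nlrc5, the transactivator of MHC class I genes, had 1.00 FPKM in D0, 8.88 in D9T+, 18.5 in D16S- and 2.51 in D16S+. Usp18, Socs1 and Irf9, in contrast, had 66.3, 25.1 and 38.8 FPKM in D0, their highest library, and 29.9, 17.5 and 31.9 in D16S-. Among the 22 kept receptor and signalling genes, 13 were at least 2-fold higher in D16S- than in D16S+ (15.2% of all genes) and none was lower by that much, with a median log2 difference of 1.35. The largest were Irf7 (2.65), Nlrc5 (2.47), Il10rb (2.03), Irf2 (1.94) and Socs3 (1.79). Against D0, 5 of the 22 were at least 2-fold higher in D16S- (12.8% of all genes) and 2 lower (11.4%), with a median of 0.29.

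**Figure D4:**
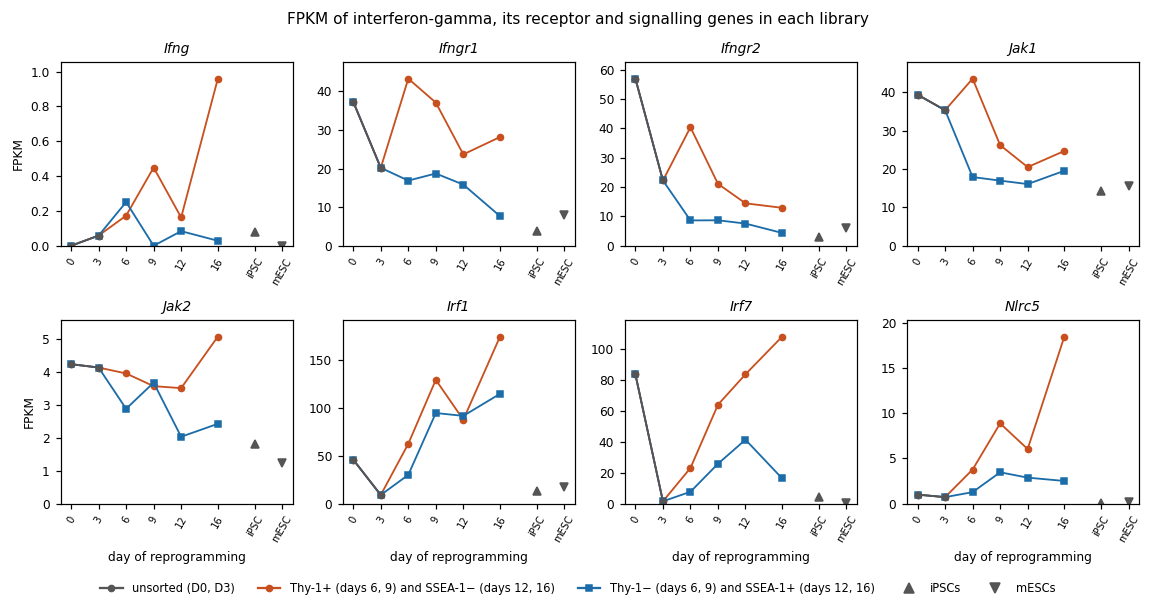
FPKM (linear axes that start at 0) of interferon-gamma, its 2 receptor chains, 2 receptor kinases, Irf1, Irf7 and Nlrc5 by day, with the colours of the 2 routes as in the plot of the 10 genes; each point is 1 library. Ifng stays below 1 FPKM, Ifngr2 is highest in D0, and Irf1, Irf7 and Nlrc5 are highest in D16S-.

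Further targets allow interferon-gamma and type I interferon programmes to be set side by side. Of 25 kept interferon-gamma targets, 21 were higher in D16S- than in D16S+ by 2-fold or more (15.2% of all genes), with a median log2 difference of 1.65. Against D0, 16 were higher in D16S- by that much (12.8% of all genes), with a median of 1.55. H2-Aa and Ubd reach 1 FPKM in D16S- alone and so had to be higher there. Among the other 23, 19 were at least 2-fold higher in D16S- than in D16S+ and 14 than in D0, against 15.2% and 12.7% of the 14136 genes that reach 1 FPKM outside D16S-. Psmb8, an immunoproteasome subunit, had 37.3 FPKM in D0, 80.6 in D16S+ and 398 in D16S-. Tap2, a peptide transporter of antigen presentation, had 23.6, 27.0 and 138 in the same libraries, and Batf2, a transcription factor of activated macrophages, 0.0754, 0.968 and 13.9. Nos2, the inducible nitric oxide synthase, had 0.0596, 2.82 and 16.9. Serpina3g, a serine protease inhibitor, was highest in D9T+ as Iigp1 was, with 33.1 FPKM in D9T+, 5.40 in D16S- and 0.278 in D16S+. The one gene lower in D16S- by 2-fold was Ifi30, a lysosomal thiol reductase, with 301 FPKM in D16S+ and 116 in D16S-.

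Type I targets were set against D0 in the same way. Of 19 kept, 13 were at least 2-fold higher in D16S- than in D16S+ (15.2% of all genes), with a median log2 difference of 1.24. Against D0, 3 were higher in D16S- by that much (12.8% of all genes) and 4 lower (11.4% of all genes), with a median of -0.21. The 7 members that were not chosen for a peak in D16S- had a median of 2.35 in this comparison. Isg15 had 504 FPKM in D0, 5.66 in D3, 43.5 in D16S+ and 244 in D16S-. Ifit3 had 49.2, 1.06, 2.97 and 18.5, and the log2 difference of Ifit1 on day 16 was 1.94. Dhx58 (12.6, 0.909, 3.44 and 26.4) and Oas3 (2.22, 0.208, 7.72 and 35.2) were higher in D16S- than in D0. Of the 19, 10 were highest in D0 (19.8% of all genes) and 7 in D16S- (6.62%), and of the 7 members 6 were highest in D16S- and none in D0. These differences between lists were not tested. All 19 were at least 2-fold lower in D3 than in D0 (8.67% of all genes), with a median of -2.49, against -1.49 for the 10 genes. Both programmes overlap in their targets, and the 2 lists do not separate the signals.

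**Figure D5:**
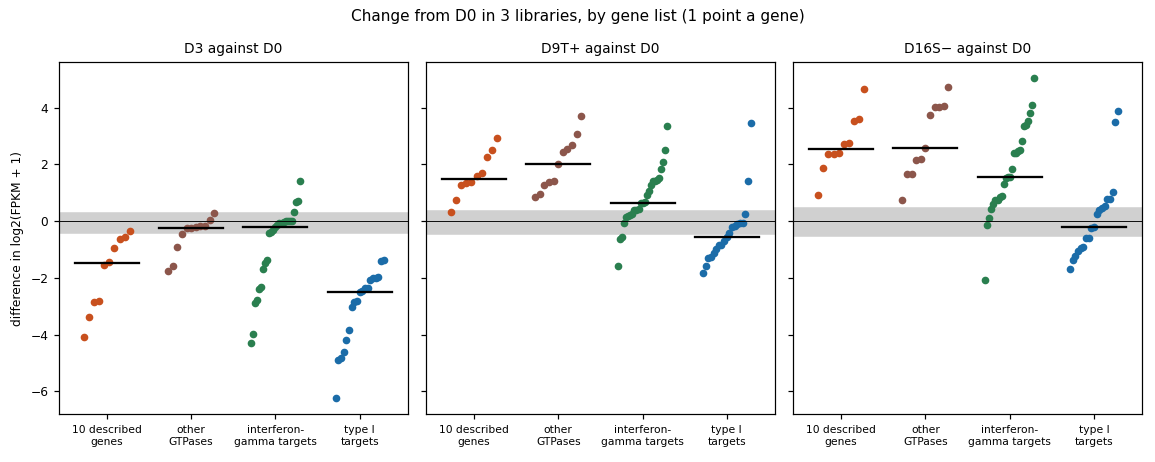
Difference in log2(FPKM + 1) from D0 in D3, D9T+ and D16S- for the 10 described genes, 11 other interferon-inducible GTPase genes, 25 interferon-gamma targets and 19 type I interferon targets; each point is a gene, black bars are medians and the grey band spans the middle 50% of 14178 genes. In D16S- the medians are 2.55, 2.56, 1.55 and -0.21, and in D3 they are -1.49, -0.23, -0.22 and -2.49. Without Gbp2, Gbp5 and Cd274, chosen for a peak in D16S-, the first median in D16S- is 2.35. In D0, 15 of 17 other GTPases and 12 of 26 interferon-gamma targets were under 1 FPKM. Falls from such levels come out small on this scale.

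Other immune checkpoint genes, and genes that act with Cd274, were described too. Of the 7 kept genes of this mixed list, 3 were at least 2-fold higher in D16S- than in D16S+ (15.2% of all genes). Tnfrsf14, the receptor HVEM, had 8.59 FPKM in D16S- and 1.95 in D16S+, Cd80 had 5.04 and 1.70, and Lgals9, which encodes galectin-9, 189 and 90.1. Vtcn1 followed with a log2 difference of 0.99. Cmtm6, whose product keeps PD-L1 on the cell surface, went the other way, with 18.8 FPKM in D16S- and 35.8 in D16S+. Pdcd1, the gene of PD-1, had at most 0.425 FPKM. Conjugation factors of autophagy, which place guanylate-binding proteins and immunity-related GTPases on vacuoles, had a median log2 difference of 0.13 on day 16. Of 11, 3 were at least 2-fold higher in D16S- than in D16S+ (15.2% of all genes), Gabarap (1.09), Gabarapl1 (1.05) and Atg7 (1.01) on the log2 scale. Map1lc3a (0.91) and Atg12 (-0.62) came next.

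Promoters were searched for the letters of the elements named above, from 250 bases before to 50 after the start of each gene, in RefSeq sequences of build GRCm38.p6. TTCNNNGAA stood for the GAS element and GAAANNGAA for the ISRE element, on both strands. Of 32851 promoters, 8.30% held the first, 8.56% the second and 1.07% both. The second was found in all 8 members with an entry, and 4 of these, Gbp5, Gbp7, Igtp and Irgm2, held both. The window from 110 to 11 bases before the start is shown for 5 members to let the spacing be seen, on the strand of the gene and with matches in capitals (chr3:142620553-142620652 for Gbp2, chr3:142530226-142530325 for Gbp7, chr11:58199446-58199545 for Igtp, chr11:58214867-58214966 for Irgm2 and chr19:29367328-29367427 for Cd274):
Gbp2: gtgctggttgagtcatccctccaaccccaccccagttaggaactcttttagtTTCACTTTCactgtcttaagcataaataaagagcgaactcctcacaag
Gbp7: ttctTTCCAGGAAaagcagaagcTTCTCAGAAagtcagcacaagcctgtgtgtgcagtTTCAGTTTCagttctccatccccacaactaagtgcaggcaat
Igtp: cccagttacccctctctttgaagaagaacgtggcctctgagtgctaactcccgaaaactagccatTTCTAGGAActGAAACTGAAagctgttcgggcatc
Irgm2: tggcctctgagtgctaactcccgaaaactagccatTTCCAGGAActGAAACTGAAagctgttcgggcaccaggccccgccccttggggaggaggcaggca
Cd274: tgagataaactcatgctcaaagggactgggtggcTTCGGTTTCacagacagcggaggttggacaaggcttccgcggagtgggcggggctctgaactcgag
In Igtp and Irgm2, GAS-type and ISRE-type letters stand 2 bases apart, and the 2 promoters were identical at 68.1% of 270 bases when shifted by 30 bases. The ISRE-type match began 58 bases before the start in Gbp2, 52 in Gbp7, 34 in Igtp, 64 in Irgm2 and 76 in Cd274. Gbp2, Gbp3, Irgm1 and Cd274 had no GAS-type match in this window. A match describes letters and not a bound site, and promoters of Gbp6 and Iigp1 were not analysed here. Of 9 other interferon-inducible GTPases with an entry, 4 held both motifs, Tgtp1, Tgtp2, Gm12250 and Gm12185, and 6 the ISRE type. Irf1 and Psmb8 held the GAS type, and Ifi47, whose profile was most like that of the members, neither.

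Profiles were compared over the 12 libraries among 11509 genes with a range of at least 1 log2 unit, the members left out. Among the 10 genes most like the mean of the members were Ifi47 (Pearson r of 0.99), Psmb8 (0.98), Tap2 (0.97), H2-T23 (0.97), Gbp9 (0.97), H2-Q1 (0.96), H2-D1 (0.96), Zbp1 (0.96) and Nlrc5 (0.95). H2-T23, H2-Q1 and H2-D1 encode MHC class I molecules. Among the members, Gbp7 was closest to the mean of the other 9 (0.99) and Cd274 the farthest (0.88). Without D16S-, these values were 0.98 and 0.89. Gbp2 was most like Ifi47, Psmb8 and Syt8, Gbp5 most like Ifi205, Lce3f and Il18bp, and Cd274 most like Ifi205, Gm12216 and Gbp10. Lce3f and Gm12216 reached 1 FPKM in D16S- alone, with 1.31 and 1.66 FPKM there. The level of Gbp10 is uncertain, as that of Gbp6 is. Gbp2, Gbp5 and Cd274 were chosen for a peak in D16S-, and the profiles include that library, so nothing is read from their matches. Libraries that differ in all genes share these profiles, and the coefficients carry no test.

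Markers of leukocytes, which make interferon-gamma or respond to it strongly, were read in the same libraries. The summed FPKM of 15 T, NK and B cell markers was between 0.385 and 8.55, with 1.23 in D16S-, 4.30 in D16S+ and 8.55 in mESCs. Ncr1, Klrk1 and Ms4a1 were listed at 0 in all libraries, and Cd3e was at 0 in D16S-. Cd3g gave most of the sum in D16S-, with 0.846 FPKM against 0.243 in D16S+, and it had 5.34 in D9T- and 3.92 in D9T+. Cd79b had 0.132 FPKM in D16S- and 1.36 in D16S+. Of 15 macrophage and myeloid markers, the sum was 47.9 in D0, 91.5 in D16S+ and 209 in D16S-, and 10 were under 1 FPKM in D16S-. Of the 13 kept ones, 4 were at least 2-fold higher in D16S- than in D0 (12.8% of all genes) and 6 lower (11.4%). Against D16S+, 4 of the 13 were at least 2-fold higher in D16S- (15.2% of all genes) and none was lower by as much (11.8%). The median log2 difference between these fractions was 0.55. The sum in D16S- was made up mostly of Cd68 (115), Laptm5 (57.3) and Csf1r (19.9). In D16S+, these 3 had 62.0, 19.0 and 6.63 FPKM, and in mESCs 48.0, 52.1 and 0.0953. Cd14 had 9.03 FPKM in D16S- against 1.67 in D16S+, and Mpeg1 5.02 against 1.28, the highest level of Mpeg1 in any library. Tyrobp (0.897 against 0.0724) and Lyz2 (0.509 against 0.0334) were higher in D16S- too, at levels under 1 FPKM. Ptprc (CD45) had 0.0269 FPKM, Emr1 (F4/80) 0.0148 and C1qa 0.0495 in D16S-. D0 had 3.47 FPKM of C1qa and 9.47 of Lyz2, against 0.0661 and 0.475 in D3. Mast cell markers were all listed at 0 in D16S-, and the sum of 8 endothelial markers was 49.0 in D16S- and 48.0 in D16S+. Of the 6 kept endothelial markers, 3 were at least 2-fold higher in D16S- than in D16S+ (15.2% of all genes). Another 2 were lower by as much (11.8%), among them Pecam1 with 2.39 FPKM against 31.9. The sum of 12 epithelial markers was 65.5 in D0, 1114 in D16S+ and 1819 in D16S-. On day 16, 5 of these 12 were at least 2-fold higher in D16S- (15.2% of all genes) and 5 lower (11.8%), with a median log2 difference of -0.21. Krt8 had 543 FPKM in D16S- against 149 in D16S+, and Cdh1 had 44.6 against 130. Fibroblast markers were higher in D16S- than in D16S+, as the members were, with sums of 499 and 37.7, but they were far lower than the 7787 of D0, where the members were lower than in D16S-. What part other cells had in the levels of the members was not tested.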

How the data were processed

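Messenger RNA was sequenced in 12 libraries, 1 a condition, grouped by their titles. The authors mapped reads to mm9 with STAR, removed reads with more than 2 mismatches or several loci, and ran cuffdiff. The deposited values are FPKM with the lower and upper interval ends of cuffdiff, on its FPKM scale. Versions, annotation and library scaling are not given in the sources used here, and the sources name both a stranded and an unstranded kit, so strand use is unclear. A further 12 status columns were not used.

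Members and gene lists were chosen with earlier results of these data known. Values were compared as log2(FPKM + 1) over 14178 genes of at least 1 FPKM in some library. From 14 lists, the rule takes up to 5 genes with the largest difference between D16S- and D16S+, the genes of interferon-gamma signalling, markers at or near 0, and the 10 genes of most similar profile (3 for each of Gbp2, Gbp5 and Cd274). Not every gene that this rule names is reported here, and some marker lists are given by their sums. Other genes named (Ifi30, F830016B08Rik, Usp18, Socs1, Irf9, Tyrobp, Lyz2, Pdcd1, chromosomal neighbours and markers of high level) were picked after their values were seen. Scripts were tested on simulated data and used Python 3.11.15, pandas 2.3.3, numpy 2.4.6 and Biopython 1.88. Protein identities are global alignments with BLOSUM62.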

Additional observations from a re-analysis of the deposited data

Results flagged for a closer look

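In 12 of 60 cases, each a gene over a step, the 2 routes moved in opposite directions while ending at least 1.5-fold apart. The share over all genes was not computed, so nothing is read from this count. Each case rests on 1 library a point, and the difference was not tested. Its size is given on the log2(FPKM + 1) scale as the unsuccessful less the successful route.

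From day 12 to day 16, Gbp3, Gbp5 and Gbp7 were higher in the SSEA-1- library and lower in the SSEA-1+ library, with gaps of 1.73, 2.10 and 1.05. Their changes in the SSEA-1+ library were -0.35, -0.19 and -0.10. Gbp5 was chosen for a peak in D16S-, so nothing is read from its case. From D0 to day 16, Gbp3 (2.85) and Irgm1 (1.19) were higher in D16S- and lower in D16S+, the latter by only -0.10 and -0.25. From D0 to day 6, the gap was 0.59 for Gbp5, 0.82 for Gbp6, 1.33 for Igtp, 1.40 for Irgm2 and 1.90 for Iigp1, with D6T+ above and D6T- below D0. In D6T- the changes were -0.12, -0.14, -0.47, -0.83 and -0.16 in the same order. Irgm2 was flagged from D0 to day 12 (0.95), with a change of -0.17 in D12S+. Cd274 was flagged from D0 to day 9 (0.76), but D9T- was level with D0, at 1.48 FPKM in both. Steps from D0 share the D0 library, and D0 was grown in another medium.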

How the results depend on the processing

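No paired analysis was possible because each condition had 1 library. Of 150 recomputed main values, none changed direction and 23 moved by over 1.5-fold. Shares of all genes at the settings below are not given, so counts of members there are a description only. With a pseudocount of 0.1, the members past 2-fold numbered 5 on day 9, 6 on day 12, 3 in D16S+ against D0 and 10 lower in iPSCs than in D0. Medians of the other GTPases were then 1.66 on day 9, 2.64 on day 16 and 3.95 in D16S- against D0, that of interferon-gamma targets against D0 was 2.54, and 6 of the 10 most similar genes remained among the 10. With equal total FPKM in each library, 1 member passed on day 12 and 3 in D16S+ against D0. This scaling shifts the median of all genes by up to 0.36 against D0. At 4-fold, members past the threshold numbered 0 on day 6, 1 on day 9, 0 on day 12, 6 on day 16, 0 in D6T+ and 3 in D9T+ against D0, 2 from D12S- to D16S- and 0 between iPSCs and mESCs. With a minimum of 5 FPKM, medians of the other GTPases were 2.34 on day 16 and 4.03 in D16S- against D0, and that of interferon-gamma targets against D0 was 2.40. Over all genes of the table, the median of the other GTPases against D0 was 1.67. Of 444 further values, 67 moved. The causes were not tested. No value moved under median-of-ratios scaling, but its factors lay between 1.00 and 1.02, so it could hardly move any. No list median moved when genes reaching 1 FPKM in D16S- alone were left out, an alternative chosen after seeing the data. Leaving out D16S- moved neither value of profile likeness, but a coefficient near 1 cannot rise by 1.5-fold, so this margin could catch only a fall. Absolute depth is unknown, and low FPKM such as those of Gbp5 in D3 rest on few fragments.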

Other observations

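Genes of MHC class II, further targets of interferon-gamma, were read in the same libraries. H2-Ab1 had 0.221 FPKM in D0, 3.08 in D12S-, 1.66 in D16S+, 11.4 in D16S-, 0.202 in iPSCs and 21.3 in mESCs. Cd74, the invariant chain, had 1.17, 4.66, 4.94, 24.4, 14.0 and 16.4 in the same libraries, and Ciita, the class II transactivator, had at most 0.453, in D16S-. In mESCs, H2-Ab1 and H2-Eb1 (16.3) were above D16S- or near it while the 10 genes of the report were at or below 2.45.

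The chemokine Cxcl10 had 31.7 FPKM in D0, 0.648 in D3, 20.2 in D9T+, 5.96 in D12S- and 28.4 in D16S-, and Cxcl9 was highest in D9T+ (2.94). Gch1, the first enzyme of tetrahydrobiopterin synthesis, was highest in D0 (66.8) and had 15.2 FPKM in D16S- and 3.54 in D16S+.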
